A study of Mus musculus with 13 samples.

Results

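The Toll-like receptors are the family of innate immune sensors that recognise conserved microbial molecules, and 10 of the 55487 genes in the deposited count tables are described here: Tlr1, Tlr2, Tlr3, Tlr4, Tlr5, Tlr6, Tlr7, Tlr8, Tlr9 and Tlr13. They were taken by name, with each symbol matched to its Ensembl gene identifier in both tables, and all 10 passed the filter on low counts in both genotypes. Their levels were followed in primary mouse embryonic fibroblasts (MEFs) and in lines that had become immortal spontaneously, in order to separate the receptors that fibroblast lines kept from those that they lost.

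The study grew MEFs by serial passage in 10% fetal calf serum, raised the serum to 20% once the cultures were senescent, and expanded the colonies that grew out into lines, for WT cells again in 10% serum. Poly-A RNA was sequenced from 13 cultures, namely 3 wild-type (WT) primary cultures (clones 3, 4 and 5), the 3 immortalized WT lines of the same clone numbers, 3 primary cultures labelled Prkd3-/- (clones 13, 14 and 15) and 4 immortalized Prkd3-/- lines (13, 13a, 14 and 15). Each WT clone number stands for a different embryo according to the methods of the study, and each WT line was established from colonies of its own culture. For the Prkd3-/- lines, including 13a, the link to a primary culture rests on the clone name. The embryonic age and the strain are not given in the sources used here, and all the cultures shared the same medium and immortalization protocol. The p-values measure only the spread between these samples, some of which may be technical.

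A Toll-like receptor consists of a leucine-rich ectodomain that binds the ligand, a membrane span and an intracellular TIR domain that recruits adaptor proteins. Tlr1, Tlr2, Tlr4, Tlr5 and Tlr6 sense lipopeptides, lipopolysaccharide or flagellin at the cell surface, whereas Tlr3, Tlr7, Tlr8, Tlr9 and Tlr13 sense nucleic acids in endosomes after the chaperone Unc93b1 has delivered them there. Signalling through the adaptors Myd88 and Ticam1 activates NF-κB and interferon regulatory factors. Macrophages and dendritic cells express most of the family, while fibroblasts are known to respond to ligands of Tlr2, Tlr3 and Tlr4.

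The sequences upstream of 4 of the receptors are shown, those of Tlr13 and Tlr5 because they were called in WT cells and those of Tlr8 and Tlr9 because they are the endosomal receptors described beside Tlr13 that have an entry. RefSeq start sites (GRCm38.p6) were available for 8 of the 10 receptors, with 10 promoter entries, and the bases printed lie outside the annotated genes of the count tables. Capitals mark the letters GAGGAA, the core recognised by the myeloid factor PU.1 (read on the opposite strand as TTCCTC), and GGGCGG, the GC box bound by Sp1. These motifs were chosen after the sequences had been seen, they do not overlap each other, and both strands were searched.
Tlr13, chrX:106143025-106143203, strand +: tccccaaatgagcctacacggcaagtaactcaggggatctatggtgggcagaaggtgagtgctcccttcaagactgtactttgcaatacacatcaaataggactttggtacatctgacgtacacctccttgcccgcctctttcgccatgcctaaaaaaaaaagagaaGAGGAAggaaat
Tlr9, chr9:106222348-106222597, strand +: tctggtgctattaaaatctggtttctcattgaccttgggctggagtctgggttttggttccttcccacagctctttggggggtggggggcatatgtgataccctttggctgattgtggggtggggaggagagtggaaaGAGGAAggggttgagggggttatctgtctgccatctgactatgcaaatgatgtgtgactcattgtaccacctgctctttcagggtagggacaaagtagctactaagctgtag
Tlr8, chrX:167264330-167264579, strand -: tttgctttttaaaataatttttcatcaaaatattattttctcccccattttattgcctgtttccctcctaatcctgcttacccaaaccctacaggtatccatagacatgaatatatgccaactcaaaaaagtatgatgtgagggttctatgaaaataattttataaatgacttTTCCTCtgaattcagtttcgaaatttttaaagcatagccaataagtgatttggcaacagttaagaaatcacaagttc
Tlr5, chr1:182954538-182954787, strand +: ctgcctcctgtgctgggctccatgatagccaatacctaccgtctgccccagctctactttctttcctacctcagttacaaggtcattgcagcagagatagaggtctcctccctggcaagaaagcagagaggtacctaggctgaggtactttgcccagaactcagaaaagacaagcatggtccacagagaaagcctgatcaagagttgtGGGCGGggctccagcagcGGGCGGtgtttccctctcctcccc
In the 250 bases before the start site, GAGGAA occurred once each in the entries of Tlr8, Tlr9 and Tlr13 and in 1 of the 2 entries of Tlr1, and in 23.3% of all 32851 promoter entries. GGGCGG occurred in the entries of Tlr2 and Tlr5, at 2 positions each, and in 32.7% of all entries. The GC content was 31.2% for Tlr8, 50.4% for Tlr9, 55.2% for Tlr5 and 62.8% for Tlr2, beside a median of 52.4% over all entries. A match describes letters in these windows and is not a measurement of binding.

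The members lie on 7 chromosomes (GRCm38 coordinates of the count tables). Tlr1 (chromosome 5, 64924679 to 64933563) and Tlr6 (chromosome 5, 64952031 to 64960097) are neighbours, as are Tlr8 (chromosome X, 167242696 to 167264329) and Tlr7 (chromosome X, 167304929 to 167330558). Tlr13 lies elsewhere on chromosome X (106143204 to 106160493), Tlr9 on chromosome 9 (106222598 to 106226883), Tlr5 on chromosome 1 (182954788 to 182976044), Tlr2 on chromosome 3 (83836272 to 83841767), Tlr3 on chromosome 8 (45395665 to 45411080) and Tlr4 on chromosome 4 (66827584 to 66930284). Tlr3 shares 381 exon bases, 7.32% of its exon length, with the predicted gene Gm45542, whose count was 1.85% to 6.62% of that of Tlr3 in each library, and no other member shares exon bases with another gene. Tlr1 and Tlr6 are close paralogs, so the division of reads between them is uncertain where their sequences are alike.

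The libraries held between 35273408 and 100441756 counts, so that 3 counts, the floor used here, corresponded to 0.0277 to 0.0842 CPM (counts scaled to a common library size). This floor covers counting error only. Counts on Prkd3 itself were also found in Prkd3-/- libraries (33.6 to 43.2 CPM in primary and 43.8 to 61.0 CPM in immortalized cells, against 69.2 to 73.7 and 73.6 to 93.7 CPM in WT cells), so gene counts show a lower level and not a loss, and they would not show a deletion of part of the gene. The 10 fibroblast markers had counts in all libraries, summing to 30899 CPM or more, but single markers varied. Lum fell to 0.0483 CPM in the lowest WT line, against 164.6 to 192.4 CPM in WT primary cells. Thy1 was at 4.85 CPM in line 13, against 524.1 CPM in primary clone 13. Of the 10, 4 had a negative Log2FC in WT and 6 in Prkd3-/- cells, and none was called. Macrophage markers, 16 genes such as Cd68, Csf1r and C1qa, summed to 1640 to 1684 CPM in WT primary cells and 76.3 to 152.7 CPM in WT lines, and all 16 were detected in each of these libraries. In Prkd3-/- cells they summed to 190.9 to 2316 CPM in primary cultures and 20.9 to 377.3 CPM in lines, with up to 9 of the 16 at 0. Markers of neutrophils and mast cells summed to at most 1.15 CPM and those of lymphocytes to at most 3.61 CPM in any library. Endothelial markers (6 genes, with Tie1 averaging 0 CPM in WT primary cells) summed to 11.6 to 16.4 CPM in WT primary cells and 0.371 to 1.998 CPM in WT lines, and to 15.2 to 29.0 and 1.55 to 17.6 CPM in the Prkd3-/- groups. Epithelial markers (5 genes) summed to 2.33 to 2.68 CPM in WT primary cells and 0.145 to 0.474 CPM in WT lines, and to 1.09 to 2.61 and 0.351 to 4.33 CPM in the Prkd3-/- groups. Of the 5 plasmacytoid dendritic cell markers Siglech was at 0 in all libraries, and their sums of 129.0 to 356.5 CPM included Tcf4, which averaged 228.3 CPM in WT primary cells. In these bulk libraries, fewer cells of a type and less RNA per cell cannot be told apart.

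Some libraries stood apart. Primary Prkd3-/- clone 14 held 12.1 times the summed macrophage marker level of clone 13. Line 13a kept a median of 36.0% of the primary level of these markers, where the other 6 lines kept 0% to 7.26%. The 3 WT primary libraries lay close together, and for no receptor did the highest exceed the lowest by more than 1.24-fold. Libraries of a group still differed from each other beyond sampling noise, with a chi-square per degree of freedom of at least 6.22 for each pair.

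Per length of transcript (CPM per kb), Tlr13 (6.97 ± 0.0661, SD, n = 3) and Tlr2 (6.91 ± 0.392) were the highest receptors in WT primary cells, and their ranges overlapped. Tlr4 (5.42 ± 0.127) and Tlr7 (4.77 ± 0.147) came next, followed by Tlr8 (1.98), Tlr3 (1.51), Tlr6 (0.892), Tlr9 (0.719), Tlr1 (0.454) and Tlr5 (0.359), and from Tlr2 downwards no range overlapped that of the next receptor. In WT lines the order was Tlr2 (5.69 ± 6.28), Tlr4 (5.33 ± 2.81), Tlr3 (1.41 ± 1.86) and Tlr6 (0.508 ± 0.0670), and the other 6 receptors averaged 0.259 CPM per kb or less. Among these lines the ranges of neighbours overlapped except between Tlr4 and Tlr3 and between Tlr6 and Tlr13. In Prkd3-/- lines Tlr4 was the highest receptor (2.43 ± 1.22 CPM per kb, n = 4), followed by Tlr3 (0.674 ± 0.510) and Tlr2 (0.624 ± 0.679), and all neighbours overlapped.

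The endosomal receptors other than Tlr3, namely Tlr7, Tlr8, Tlr9 and Tlr13, together made up 48.8%, 48.2% and 47.5% of the summed receptor level per kb in WT primary clones 3, 4 and 5. In the WT lines of these clones they made up 7.25%, 6.52% and 3.38%. The primary Prkd3-/- cultures differed from each other, at 18.0%, 62.9% and 35.3% for clones 13, 14 and 15. In Prkd3-/- lines the share was 1.56% in line 13, 29.1% in line 13a, 8.20% in line 14 and 3.35% in line 15. Tlr3 made up 4.88% to 5.29% of the receptor level in WT primary cells, 4.48%, 4.82% and 13.3% in WT lines 3, 4 and 5 and 12.1% to 12.96% in Prkd3-/- lines. With Tlr3 included, the endosomal share was 52.4% to 53.8% in WT primary cells and 11.7%, 11.3% and 16.6% in WT lines, so that line 5 was then the highest of the WT lines and not the lowest. Tlr4 alone made up 35.9% to 74.3% of the receptor level in these 4 lines.

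**Figure D1:**
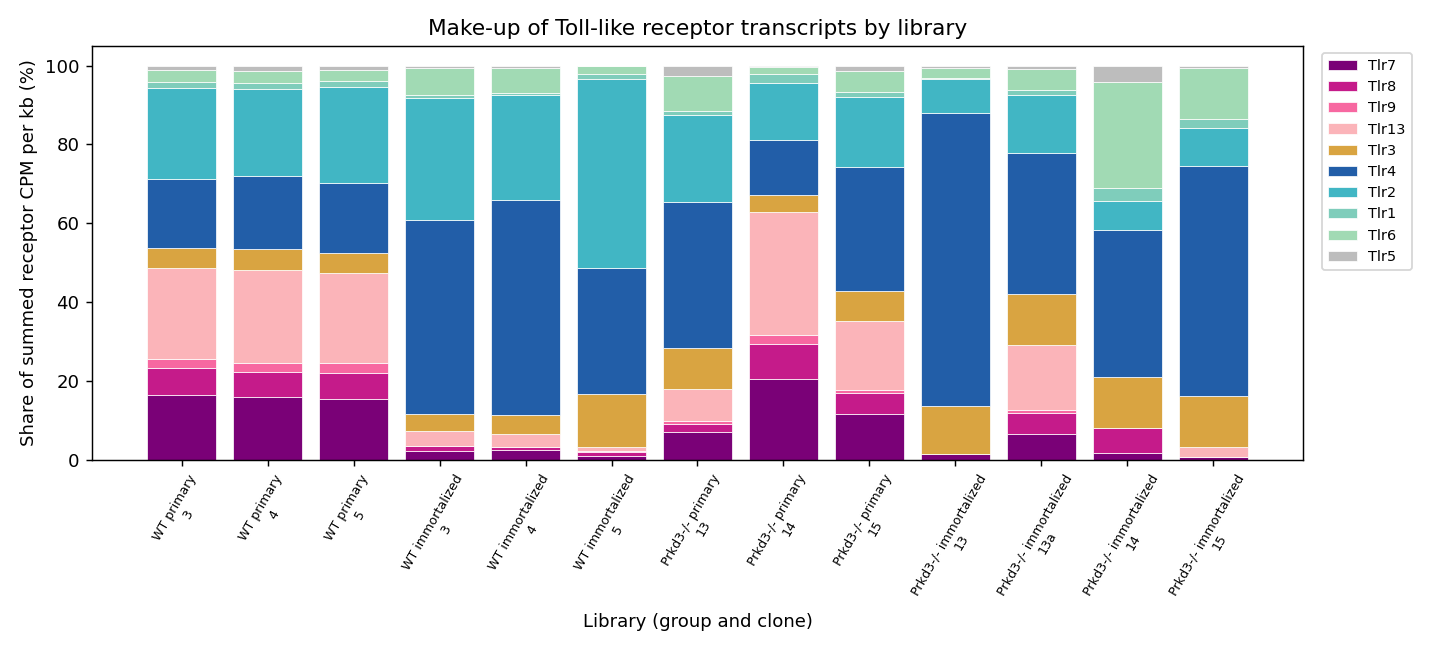
Each bar is a library and its segments are the shares of the 10 receptors in their summed CPM per kb. The sum itself differs between libraries and is not shown. Tlr7, Tlr8, Tlr9 and Tlr13 fill 47.5% to 48.8% of the WT primary bars and 3.38% to 7.25% of the WT immortalized bars, and line 13a holds 29.1%.

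In WT cells, all 10 receptors had a negative Log2FC in immortalized against primary cells, and 3 of the 10, Tlr13, Tlr7 and Tlr5, were downregulated at an adjusted p-value under 0.01 with a |Log2FC| of at least 1 (edgeR's quasi-likelihood test). Of all 19836 genes tested, 1.76% were downregulated and 0.0605% upregulated, and none of the receptors was upregulated. The median Log2FC of the 10 receptors was −2.50, beside 0.04 over all genes. All 3 lines lay below all 3 primary libraries for 7 receptors (Tlr1, Tlr5, Tlr6, Tlr7, Tlr8, Tlr9 and Tlr13), as they did for 17.4% of all genes, and no receptor had all lines above, as 13.9% of genes did. DESeq2 called 5 receptors lower, adding Tlr8 and Tlr9, and none higher, where it called 5.01% of 24538 genes lower and 0.493% higher. When the embryo was used as a block (the replicate pairing), none of the 10 was called, with adjusted p-values of 0.0184 for Tlr13, 0.0223 for Tlr7 and 0.0511 for Tlr5 and similar fold changes, and none of all genes was called either, with 2784 at an unadjusted p under 0.05.

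**Figure D2:**
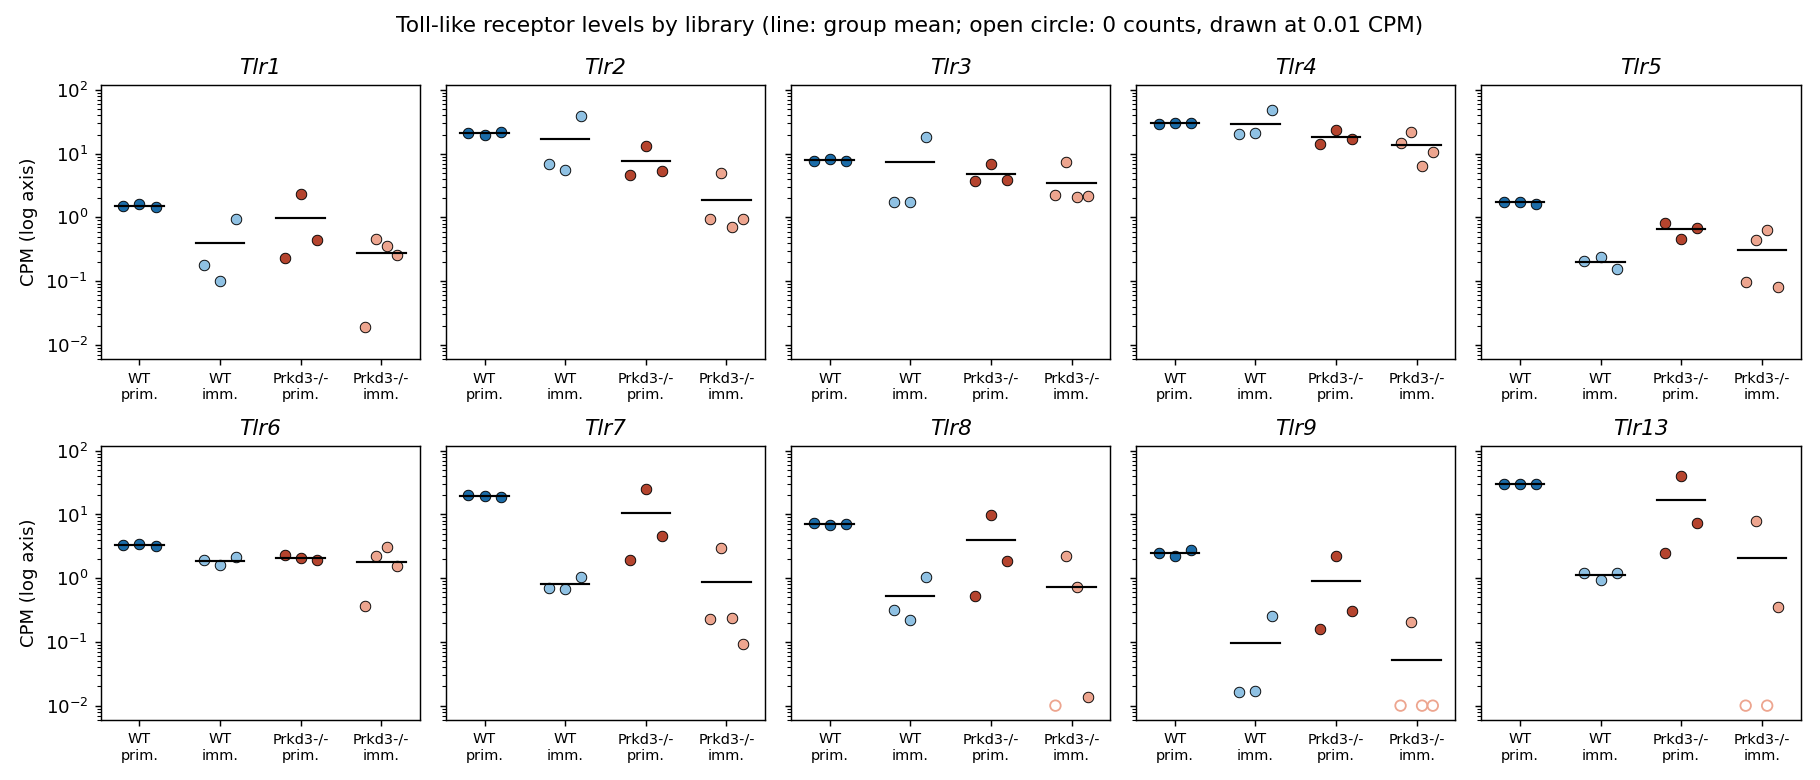
Points are libraries, horizontal lines group means, and the vertical axis is CPM on a log scale, with libraries at 0 counts drawn as open circles at 0.01 CPM. The 3 WT lines lie below the 3 WT primary libraries for 7 receptors, whereas for Tlr2, Tlr3 and Tlr4 line 5 lies above them.

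Tlr13, the endosomal sensor of bacterial ribosomal RNA, was measured at 30.0, 30.3 and 29.7 CPM in WT primary clones 3, 4 and 5 and at 1.19, 0.931 and 1.22 CPM in their lines. The groups were far apart and the lines were alike. Its Log2FC was −4.75 (SE 0.15, edgeR adjusted p = 0.000254), the smallest p-value among the receptors. Tlr7, which senses single-stranded RNA, was at 20.1, 19.4 and 18.9 CPM in primary cells and at 0.693, 0.677 and 1.05 CPM in lines (Log2FC −4.59, SE 0.22, edgeR adjusted p = 0.000546). Both calls held when each of the 6 libraries was left out in turn. Tlr8, its neighbour on chromosome X and also a sensor of single-stranded RNA, was at 7.41, 6.81 and 7.10 CPM in primary cells. In lines it was at 0.322, 0.220 and 1.05 CPM, so line 5 held more than 3 times the level of the others (Log2FC −3.73, SE 0.62, edgeR adjusted p = 0.0284). Tlr9, the sensor of unmethylated CpG DNA, was at 2.47, 2.24 and 2.79 CPM in primary cells. It had 1 count each in lines 3 and 4 and 17 counts (0.259 CPM) in line 5, and its Log2FC of −4.63 (SE 0.97) did not pass (edgeR adjusted p = 0.0578). Without line 5 its Log2FC was −7.09 and it was called, as was Tlr8 at −4.70, although with fewer than 3 counts in the remaining lines the fitted value for Tlr9 has no precision. Over the same comparison the macrophage markers had a median Log2FC of −4.18, with 9 of 16 downregulated. The endothelial markers had a median of −3.81 over the 4 tested, with 1, Tek, downregulated, and the epithelial markers −3.28 over the 2 tested, with none downregulated by edgeR and 2 at an unadjusted p under 0.05. The part of these cell types in the receptor values was not tested.

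Among the surface receptors, Tlr5, which binds flagellin, was at 1.76, 1.77 and 1.63 CPM in WT primary cells and at 0.209, 0.237 and 0.152 CPM in lines. All lines were far below the primary cells, at 10 to 14 counts a line. Its Log2FC was −3.10 (SE 0.26, edgeR adjusted p = 0.00304). This call rested on all 3 primary libraries, since leaving out clone 3, 4 or 5 gave edgeR adjusted p-values of 0.0308, 0.0329 and 0.0292. Those 3 fits called 48, 50 and 66 of all genes lower, against 349 in the full fit, so the loss was not particular to Tlr5. Tlr1 and Tlr6 each pair with Tlr2 to bind bacterial lipopeptides. Tlr1 ranged from 1.47 to 1.60 CPM in primary cells and was at 0.177, 0.102 and 0.930 CPM in lines 3, 4 and 5 (Log2FC −1.90, SE 0.81, edgeR adjusted p = 0.271). Tlr6 ranged from 3.18 to 3.45 CPM in primary cells and from 1.62 to 2.12 CPM in lines (Log2FC −0.81, SE 0.17, edgeR adjusted p = 0.0603), so the lines lay below the primary cells by less than the chosen |Log2FC| of 1.

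For Tlr2, Tlr3 and Tlr4 the WT lines diverged. Tlr2, the shared partner of Tlr1 and Tlr6, was at 20.8, 19.7 and 22.0 CPM in primary clones 3, 4 and 5 and at 6.94, 5.53 and 39.0 CPM in lines 3, 4 and 5. Tlr3, which senses double-stranded RNA, was at 7.79, 8.19 and 7.67 CPM in primary cells and at 1.74, 1.73 and 18.5 CPM in lines. Tlr4, the receptor for lipopolysaccharide, was at 29.4, 30.8 and 30.1 CPM in primary cells and at 20.4, 20.8 and 47.7 CPM in lines. For all 3 receptors, lines 3 and 4 lay below every primary library and line 5 above every one, which left Log2FC values of −0.28 (SE 0.77), −0.10 (SE 0.97) and −0.02 (SE 0.35) with edgeR adjusted p-values of 0.880, 0.969 and 0.982. These signs turned positive when line 3 or line 4 was left out (0.10 and 0.15 for Tlr2, 0.37 and 0.37 for Tlr3, 0.19 and 0.18 for Tlr4). Without line 5, Tlr2 (Log2FC −1.74, edgeR adjusted p = 0.00346) and Tlr3 (Log2FC −2.18, adjusted p = 0.00126) were called lower, and 8 of the 10 receptors in all, where 3.48% of 20285 genes were called lower and 0.187% higher in that fit. Tlr4 stayed uncalled, with a Log2FC of −0.55 and an adjusted p of 0.0124.

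In Prkd3-/- cells all 10 receptors again had a negative Log2FC, with a median of −1.95 beside 0.07 over all genes, but none passed the thresholds in edgeR or in DESeq2. At an unadjusted p under 0.05 there were 3, Tlr2 (Log2FC −2.02, SE 0.80), Tlr7 (−3.59, SE 1.39) and Tlr9 (−4.05, SE 1.61), each with an edgeR adjusted p of 0.730. Of all 20298 genes, 0% were called lower and 0% higher by edgeR, with 1331 at an unadjusted p under 0.05, while DESeq2 called 165 lower and 27 higher. No receptor had all 4 lines below all 3 primary libraries, as 5.26% of genes did, or all above, as 4.19% did.

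The primary Prkd3-/- cultures already differed from each other. Tlr13 was at 2.44, 40.4 and 7.46 CPM in primary clones 13, 14 and 15, and at 0 counts in lines 13 and 14, 7.96 CPM in line 13a and 0.351 CPM in line 15. Tlr7 was at 1.96, 25.1 and 4.66 CPM in the primary cultures and at 0.229, 2.95, 0.234 and 0.0944 CPM in lines 13, 13a, 14 and 15. Clone 14 and line 13a were thus the highest of their groups for both genes, and line 13a exceeded the primary culture of clone 13. Tlr8 was at 0.519, 9.73 and 1.88 CPM in the primary cultures and at 0, 2.22, 0.719 and 0.0135 CPM in the lines in the same order, where 0.0135 CPM is 1 count. Tlr9 was at 0.161, 2.24 and 0.309 CPM in the primary cultures and at 0.206 CPM in line 13a, and had 0 counts in lines 13, 14 and 15. Line 13a was thus the highest line for each of the 4. From clone 13 to clone 14 the primary level differed 16.5-fold for Tlr13, 18.8-fold for Tlr8, 13.9-fold for Tlr9, 12.8-fold for Tlr7 and 10.0-fold for Tlr1. The macrophage markers differed by a median of 11.5-fold between the same libraries (1.25-fold for Mertk to 80.8-fold for Aif1), and their part in the receptor values was not tested.

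**Figure D3:**
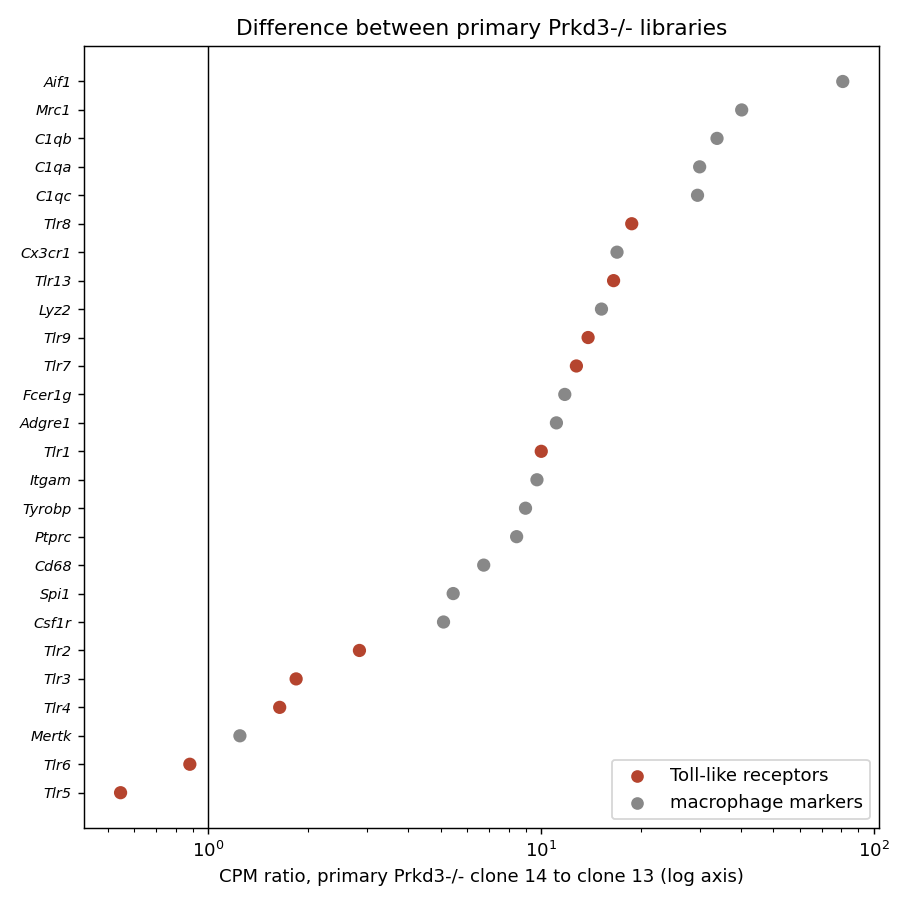
Each point is the CPM ratio of primary Prkd3-/- clone 14 to clone 13 on a log axis, for the 10 receptors and the 16 macrophage markers. Tlr1, Tlr7, Tlr8, Tlr9 and Tlr13 lie between 10.0 and 18.8, among the markers, and the other 5 receptors between 0.546 and 2.85.

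Apart from Tlr1, the other receptors differed by at most 2.85-fold between primary clones 13 and 14. Tlr4 was at 14.2, 23.3 and 17.3 CPM in clones 13, 14 and 15 and at 14.8, 22.3, 6.50 and 10.5 CPM in lines 13, 13a, 14 and 15, so the groups overlapped (Log2FC −0.45, SE 0.42). Tlr3 was at 3.70, 6.80 and 3.82 CPM in the primary cultures and at 2.27, 7.49, 2.09 and 2.19 CPM in the lines (Log2FC −0.45, SE 0.56). Tlr2 was at 4.56, 13.01 and 5.30 CPM in the primary cultures and at 0.935, 4.95, 0.703 and 0.944 CPM in the lines. For Tlr2 line 13a lay within the primary range and for Tlr3 above it, and the other 3 lines lay below it for both. Tlr5 was at 0.830, 0.453 and 0.673 CPM in the primary cultures and at 0.0954, 0.438, 0.641 and 0.0809 CPM in the lines, and clone 14 was here the lowest of the primary cultures. Tlr6 ranged from 1.91 to 2.33 CPM in the primary cultures and from 0.363 CPM in line 13 to 3.13 CPM in line 14. Its Log2FC of −0.21 (SE 0.64) became 0.13 without line 13. Tlr1 ranged from 0.230 to 2.31 CPM in the primary cultures and from 0.0191 CPM, a single count, to 0.452 CPM in the lines. Without line 13a the Log2FC moved from −3.01 to −7.11 for Tlr13, from −3.59 to −5.85 for Tlr7, from −2.45 to −4.03 for Tlr8 and from −2.02 to −3.18 for Tlr2, and without primary clone 14 it was −1.25, −1.91, −0.69 and −1.39. No receptor was called in either case.

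The difference between genotypes in the immortalized against primary Log2FC was tested with an interaction term in a joint fit of the 13 libraries. No receptor passed an adjusted p-value of 0.05 in edgeR or DESeq2, and of all 21197 genes 0% passed in edgeR, with 841 at an unadjusted p under 0.05, while DESeq2 called 11 lower and 27 higher. The single receptor at an unadjusted p under 0.05 was Tlr5, whose Log2FC was 2.05 higher in Prkd3-/- than in WT cells (SE 0.91, adjusted p = 1.00). For Tlr13 the difference was 1.74 with an SE of 2.29, so the libraries could not resolve a difference of this size. Without line 13a this difference turned to −2.31, and those of Tlr7, Tlr8 and Tlr9 also turned negative (−1.24, −0.31 and −4.34).

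**Figure D4:**
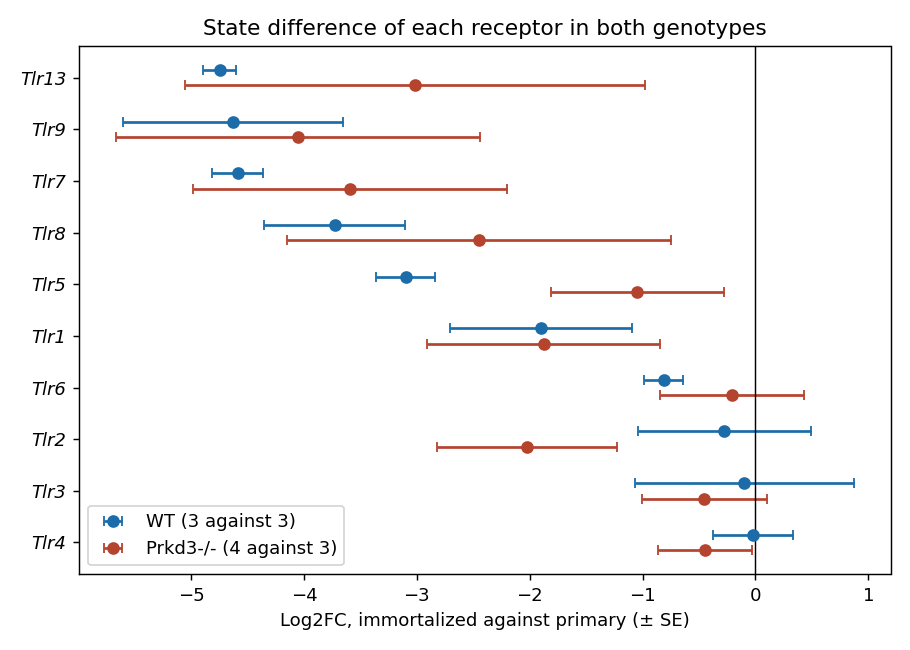
Points are the Log2FC of immortalized against primary cells with SE bars from the edgeR fit of each genotype, ordered by the WT value. All 20 points lie below 0, and the SE in Prkd3-/- cells reaches 2.04 for Tlr13, against 0.15 in WT cells.

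To separate kept from lost receptors, the level in each of the 7 lines was expressed as a percentage of the mean of the primary libraries of its genotype. A receptor was named kept at 25% or more in all 7 lines and lost below 25% in all 7, which is a description without a test. Tlr4 was kept, at 67.8%, 69.2% and 158.3% in WT lines 3, 4 and 5 and at 81.4%, 122.1%, 35.6% and 57.4% in Prkd3-/- lines 13, 13a, 14 and 15. Tlr9 was lost, at 0.645%, 0.677% and 10.4% in the WT lines, 22.8% in line 13a and 0 counts in the other 3. The other 8 were mixed. Tlr6 reached 25% in 6 lines, all but line 13 (17.3%), and Tlr3 in 5, all but WT lines 3 (22.1%) and 4 (21.9%). Tlr1 and Tlr2 reached it in 4 lines each, and Tlr5 in 2, lines 13a (67.2%) and 14 (98.3%). Tlr7, Tlr8 and Tlr13 reached it only in line 13a, at 27.9%, 54.9% and 47.5%. Without line 13a, Tlr7, Tlr8, Tlr9 and Tlr13 all counted as lost, and without line 13 Tlr6 joined Tlr4 as kept.

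Where each line was set against the primary culture of its own clone, Tlr4 was still kept, at 27.9% or more. No receptor was then lost, since line 13a stood at 127.4% of clone 13 for Tlr9, 150.4% for Tlr7, 325.8% for Tlr13 and 428.0% for Tlr8. The assignment of line 13a to clone 13 rests on its name. The macrophage markers gave a scale for comparison, with a median retention of 4.22%, 3.16% and 7.26% in WT lines 3, 4 and 5 and of 0%, 36.0%, 0.551% and 1.32% in lines 13, 13a, 14 and 15. Line 13, where this median was 0, gives no comparison. In the other 6 lines Tlr1, Tlr2, Tlr3, Tlr4, Tlr5 and Tlr6 were above the median each time, Tlr8 in 4, Tlr7 and Tlr13 in 2 each and Tlr9 in 1. Single markers spread widely around the median. The best-kept marker stood at 19.8%, 107.6% and 124.3% in WT lines 3, 4 and 5 and at 91.2%, 47.8% and 95.8% in lines 13a, 14 and 15. A receptor above the median can therefore lie within the range of the markers.

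**Figure D5:**
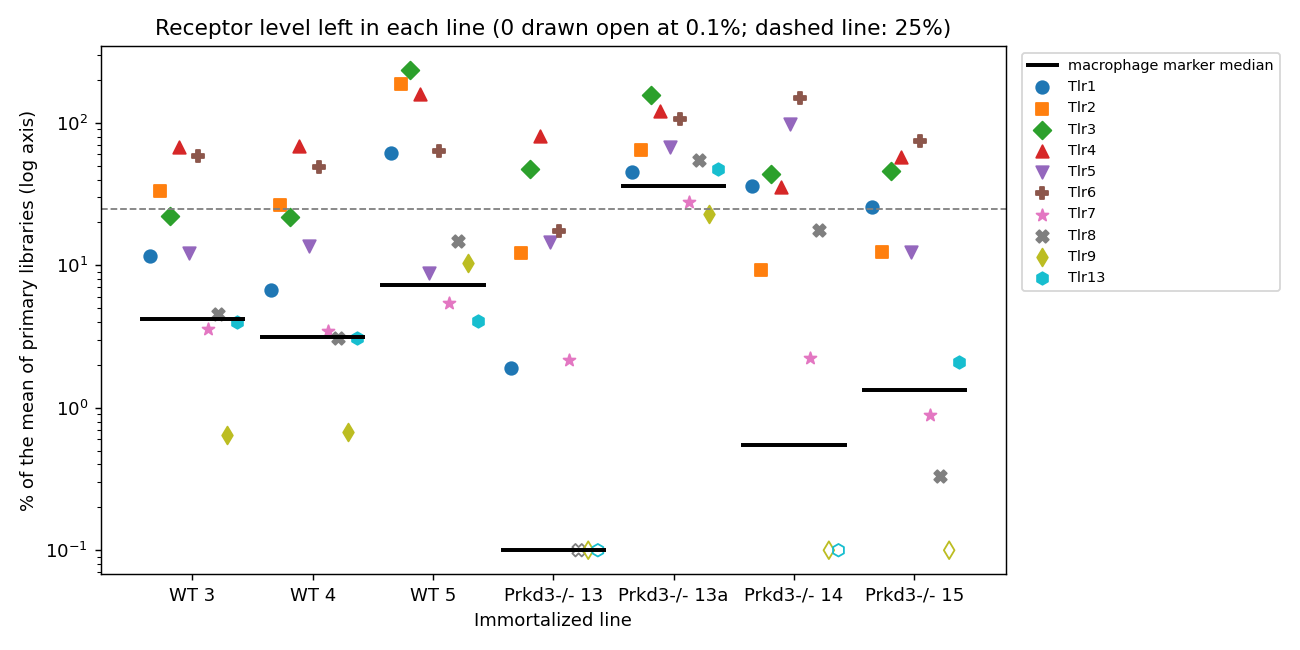
The vertical axis is the level in each immortalized line as a percentage of the mean of the primary libraries of its genotype, on a log scale, with values of 0 drawn at 0.1% and black bars for the median of 16 macrophage markers (0 in line 13). Tlr4 lies above the dashed 25% line in all 7 lines, while Tlr7, Tlr9 and Tlr13 lie near or below the black bars in WT lines 3 and 4.

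Of 69 other genes of the pathway, 61 were tested in WT cells and 6 were downregulated, with a median Log2FC of 0.08, beside the 1.76% downregulated among all genes. None was upregulated by edgeR, whereas DESeq2 called 11 lower and 1 higher, beside 5.01% and 0.493% of all genes. The 2 remaining mouse receptors, Tlr11 and Tlr12, did not pass the filter, with Tlr11 at 0 counts throughout and Tlr12 at 0 to 6 counts. Among 6 co-receptors 1 fell, Cd180, a receptor-like protein that modulates lipopolysaccharide responses, from 21.8 ± 0.472 to 5.19 ± 0.984 CPM (SD, n = 3; Log2FC −2.07, edgeR adjusted p = 0.00278). Cd14, which hands lipopolysaccharide to Tlr4, averaged 91.9 CPM in primary cells and was at 3.67, 3.47 and 18.2 CPM in lines (Log2FC −3.44, SE 0.74, adjusted p = 0.0624). Ly86, the partner of Cd180, averaged 5.14 CPM in primary cells and was at 0.226, 0.0169 and 0.290 CPM in lines (Log2FC −4.83, SE 0.77, adjusted p = 0.0249). Cd36, a scavenger receptor that assists Tlr2, averaged 32.7 CPM in primary cells and was at 0.677, 0.102 and 3.00 CPM in lines (Log2FC −4.69, SE 1.10, adjusted p = 0.0790). Ly86 and Cd36 were added after their values were seen. For these 4 co-receptors every line lay below every primary library, and DESeq2 called all 4 lower. Ly96 (MD-2), the ligand-binding partner of Tlr4, averaged 3.65 CPM in primary cells and 3.58 CPM in lines (Log2FC −0.03, SE 0.27), with 1 line below, 1 within and 1 above the primary range.

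Of 11 trafficking and processing genes 3 fell. Unc93b1, which escorts the endosomal receptors, was at 40.3, 40.4 and 39.5 CPM in primary cells and at 11.3, 8.58 and 10.1 CPM in lines (Log2FC −2.00, SE 0.12, edgeR adjusted p = 0.00113). The cysteine protease Ctss fell from 59.7 ± 2.11 to 2.37 ± 0.670 CPM (Log2FC −4.65), and Tasl, which links Slc15a4 to Irf5 downstream of these receptors, from 2.80 ± 0.199 to 0.123 ± 0.0469 CPM (Log2FC −4.48). Among 17 kinases and ubiquitin ligases Btk, a kinase of leukocytes, fell by 5.06 on the log2 scale (SE 0.52), and among 9 transcription factors Irf8, a factor of myeloid cells, fell by 5.25 (SE 0.43). Without WT primary clone 3, 4 or 5, 1 of these 6 calls remained, that of Ctss. Those 3 fits called 48, 50 and 66 of all genes lower, against 349 in the full fit. With the embryo as a block none of the 6 was called, nor any of all genes. Without line 5, 12 pathway genes were called, beside 3.48% of all genes called lower in that fit.

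The adaptors link the receptors to their kinases. Myd88 averaged 34.4 ± 1.44 CPM in WT primary cells and 34.7 ± 17.4 CPM in lines (Log2FC 0.01, SE 0.37), with line 5 highest at 52.9 CPM. Tirap, the bridge from Tlr2 and Tlr4 to Myd88, averaged 24.6 CPM in both states (Log2FC 0.00, SE 0.14), and Ticam1, the adaptor of Tlr3, 26.5 and 24.9 CPM (Log2FC −0.09, SE 0.13). Ticam2, the bridge from Tlr4 to Ticam1, averaged 2.76 CPM in primary cells and was at 0.193, 0.254 and 1.39 CPM in lines (Log2FC −2.16, SE 0.78, edgeR adjusted p = 0.209). Of 6 adaptors none was called by edgeR, with 2 at an unadjusted p under 0.05 and 1 called lower by DESeq2. Of 7 inhibitors tested none was called by either tool, with 0 at an unadjusted p under 0.05, and of 5 inducible targets tested none was called by edgeR, with 2 at an unadjusted p under 0.05 and 1 lower and 1 higher by DESeq2. In Prkd3-/- cells none of the 61 genes tested was called by edgeR or DESeq2, with 6 at an unadjusted p under 0.05. Unc93b1 was there at 10.4, 44.4 and 12.7 CPM in primary clones 13, 14 and 15 and at 0.286, 10.4, 1.14 and 0.755 CPM in lines 13, 13a, 14 and 15, again highest in clone 14 and in line 13a.

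The genes with the most similar pattern were listed by Pearson's r of log2 CPM over the 13 libraries, as a description. The libraries share groups and depth, and genes are not independent. For Tlr13 these were Gm15629 (0.995), Clec4d (0.993) and Lcp1 (0.992). For Tlr7 they were Cyth4 (0.995), Pycard (0.992) and Nrros (0.989), for Tlr9 Casp1 (0.989), Rapgef5 (0.986) and Coro1a (0.984), and for Tlr8 Adap1 (0.980), Stom (0.974) and Hcls1 (0.972). Lcp1, Coro1a and Hcls1 encode proteins of the leukocyte cytoskeleton or its signalling. Tlr3 was most like Cd5l (0.982) and the interferon-induced genes Ifi203 (0.950) and Ifit1 (0.949), and Tlr1 most like the kinase gene Lyn (0.987), Ifi27l2a (0.960) and Sp100 (0.951). Tlr2 was most like Coa4 (0.957), Gm8995 (0.938) and Ifi44 (0.936). Tlr4 was most like Tlr2 itself (0.931), before Gm44250 (0.908) and Gm38317 (0.906). Tlr5 was most like Itih5 (0.957), Sh3d21 (0.940) and Gm20460 (0.927), and Tlr6 most like Arrb1 (0.968), Tekt2 (0.965) and Hs3st3a1 (0.954). Over 0.9 lay 201 genes for Tlr9, 199 for Tlr7, 147 for Tlr13 and 107 for Tlr8, of 15799 or 15798 genes compared. The number was 86 for Tlr6, 43 for Tlr1, 31 for Tlr2, 25 for Tlr3, 21 for Tlr5 and 4 for Tlr4. Tlr9 had 0 counts in Prkd3-/- lines 13, 14 and 15 and 1 count each in WT lines 3 and 4. Its r values therefore rest in part on levels below the floor.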

How the data were processed

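The authors deposited raw counts of read pairs per gene in 2 tables, for the WT and the Prkd3-/- libraries. Per the labels and the file headers, reads were checked with FastQC 0.12.0, mapped to mm10 with STAR 2.7.10a, handled with SAMtools 1.18 and counted on Ensembl genes (GRCm38) with featureCounts of Subread 2.0.6. In the WT table pairs were counted without strand and for each gene they overlap. The counting options of the Prkd3-/- table are not given in the sources used here.

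CPM were scaled by TMM over all 13 libraries. Each genotype was fitted separately in edgeR 4.0.16 (R 4.3.3; quasi-likelihood test, filter on low counts, TMM, robust estimation), with Benjamini-Hochberg adjustment over all genes and thresholds of an adjusted p under 0.01 and a |Log2FC| of at least 1. An SE is the Log2FC divided by the square root of F. The SE includes the spread between libraries, whereas the floor covers counting error only. The fits were tested on simulated counts. Alternatives were DESeq2 1.42.0, other scalings, filters and fits, and each library left out.

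The replicate numbers pair cultures of the same embryo, as the methods of the study say for WT cells; line 13a was assigned to clone 13. Deviations of same-numbered libraries correlated at −0.0374, 0.0381 and −0.0487 in WT cells, and at 0.156 (13), −0.302 (13a), 0.0946 (14) and 0.0349 (15) in Prkd3-/- cells. Differently numbered pairs correlated at −0.0542 to 0.0864 in WT cells and at −0.320 to 0.350 in Prkd3-/- cells. The highest were line 13a with primary clone 14 (0.350) and line 13 with primary clone 15 (0.322). These values do not show the pairing, and the assignment of line 13a rests on its name. Named genes were the receptors, up to 3 called genes per pathway role, chosen co-receptors and adaptors, and the 3 genes most like each receptor. The receptors, lists and tests were chosen with earlier results of these data known, so they are not independent evidence. GC content and motifs were computed in Python 3.11.15 from RefSeq promoters.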

Additional observations from a re-analysis of the deposited data

Results flagged for a closer look

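Within the 4 immortalized Prkd3-/- lines, line 13a stood apart from the other 3 by Dixon's test for 5 receptors. It held 4.95 CPM of Tlr2 where the next line held 0.944 CPM, 7.49 CPM of Tlr3 where the next held 2.27 CPM, and 2.95 CPM of Tlr7 where the next held 0.234 CPM. It held 7.96 CPM of Tlr13 where the next held 0.351 CPM, and 0.206 CPM of Tlr9 where the others were at 0. Chance alone marks about 1 in 20 such groups where values are normally spread, and the 5 receptors are measured in the same library. For Tlr9, with the other 3 lines at 0, any count in line 13a would have been flagged, so the test adds nothing there. The macrophage markers of line 13a summed to 377.3 CPM, the highest of the 4 lines, and their part in these values was not tested.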

How the results depend on the processing

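In WT cells 3 receptors and 6 other pathway genes were called. DESeq2 called 5 and 12, and both the embryo as a block (the replicate pairing) and the joint fit of all 13 libraries called 0 and 0. Of all genes, these last fits called 0 of 19836 and 0 of 21197, so these zeros are not particular to the receptors. Leaving out each library in turn gave 2 to 8 receptors and 1 to 12 pathway genes, the highest without line 5. The number of all genes called lower ranged from 48 to 705 in the same fits, against 349 in the full fit. Both counts stayed within 1.5 times with either other scaling, with the filter dropped, without the robust option or at an adjusted p under 0.05, and with a stricter filter of 10 counts or more per library (8 receptors tested). In Prkd3-/- cells and for the genotype difference, the count of receptors was 0 in each setting tried, with or without the block. Almost all of these edgeR fits called 0 of all genes at the main thresholds, so these zeros are not particular to the receptors either. The joint fit called 1 gene lower in Prkd3-/- cells. Without line 14, 1 gene was lower and 1 higher for the genotype difference. DESeq2 called 165 genes lower and 27 higher in Prkd3-/- cells, and 11 and 27 for the genotype difference. The count of kept receptors was 1, and of lost receptors 1. A limit of 50% gave 0 kept and 3 lost, a limit of 10% gave 3 and 0, the primary library of the same clone gave 1 and 0, and leaving out each line gave 1 to 2 kept and 1 to 4 lost.

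With each library left out, the WT Log2FC ranged from −1.74 to 0.15 for Tlr2, −2.18 to 0.37 for Tlr3 and −0.55 to 0.19 for Tlr4, and in Prkd3-/- cells from −0.60 to 0.13 for Tlr6. The genotype difference ranged from −0.44 to 1.62 for Tlr1, −1.03 to 1.71 for Tlr3, −0.76 to 0.082 for Tlr4, −1.24 to 2.68 for Tlr7, −0.31 to 3.05 for Tlr8, −4.34 to 3.03 for Tlr9 and −2.31 to 3.50 for Tlr13. It also turned to −0.017 for Tlr1 without the filter and to 0.52 for Tlr3 with the replicate block. Of 482 refits of single receptors, 443 kept their direction and their side of the threshold, 23 reversed, 9 lost a call and 7 gained one. These refits include those of Prkd3-/- cells and of the genotype difference, where most fits called no gene at all. Staying uncalled there says little, so the total is no measure of how stable the WT calls are. The cause of these shifts was not tested. Few libraries, and lines with under 3 counts of Tlr8, Tlr9 or Tlr13, limit what these data resolve.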

Other observations

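Inducible targets of the pathway were examined in WT line 5, the line with the highest Tlr2, Tlr3 and Tlr4, and the genes named here were chosen after their values were seen. Il6 was at 29.1 CPM in line 5, 1.91 CPM in line 4 and 0.0806 CPM in line 3, against 0.0536 to 0.184 CPM in WT primary cells. Nos2, the inducible nitric oxide synthase, was at 17.8 CPM in line 5, at 0 in lines 3 and 4 and at 0.107 CPM at most in WT primary cells. The chemokine gene Ccl5 was at 5.73 CPM in line 5 and at 0.209 and 0.0508 CPM in lines 3 and 4, against 1.07 to 1.52 CPM in WT primary cells. Ptgs2 ranged from 108.2 to 1000.6 CPM in WT lines, against 123.4 to 145.8 CPM in WT primary cells. Il1b, Il10, Il12b and Ifnb1 were at 0.107 CPM or less in each WT line. Tnf and Cxcl10 were also the highest in line 5 among the WT lines, but did not exceed the primary cells there. Tnf was at 0.961 CPM in line 5, against 3.11 to 4.57 CPM in WT primary cells, and Cxcl10 at 4.06 CPM, against 4.80 to 6.58 CPM, so both lay below every WT primary library in line 5 as in lines 3 and 4. Among the co-receptors, Lbp, which carries lipopolysaccharide to Cd14, was at 49.9 CPM in line 5 and at 0.177 and 2.40 CPM in lines 3 and 4. Line 5 is a single line and these levels were not tested.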
